A study of Mus musculus with 3 samples.

Results

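The Gadd45 family of growth arrest and DNA damage inducible genes was followed in neural stem cells (NSCs) of the mouse, one set labelled as knockout for Dnmt3a (KO) and one as wild type (WT). Its members were every probe other than a control whose gene name in the array files was Gadd45a, Gadd45b or Gadd45g. This gave 4 probes for 3 genes, of 41174 probes on the array, and all 3 genes were among the 18033 that could be tested. Gadd45a and Gadd45g had 1 probe each and Gadd45b had 2.

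Each of 3 arrays carried 2 RNAs, one from NSCs labelled Dnmt3a-/- in the green dye Cy3 and one from NSCs labelled wildtype in the red dye Cy5, and the labels call the arrays biological replicates. Dnmt3a encodes an enzyme that sets new methyl groups on DNA, and the study's title names proliferation and differentiation as its subject. Per the labels' protocols the NSCs came from mouse embryonic stem cells, kept 7 days in serum-free N2B27 with 10 ng/ml EGF and 10 ng/ml bFGF, grown as neurospheres and then as attached bipolar cells. The labels do not give the allele, the deleted exons, the number of cell lines or the passage of each culture, and all p-values here therefore speak of the spread between these 3 pairs of samples alone. The dyes were never swapped, and a dye bias of a probe and a difference of genotype cannot be told apart. In bulk RNA, a change in the share of cells with a transcript and a change per cell cannot be told apart either.

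GADD45 proteins are small, acidic and mainly nuclear, and have no enzyme activity of their own. They act by binding other proteins: they bind and activate MAP3K4, a kinase at the head of the p38 and JNK stress pathways, they bind CDK1 and cyclin B1, PCNA and the inhibitor p21, and they have been linked to repair-based removal of methyl groups from DNA. Gadd45a is a classical target of p53, Gadd45b is induced by NF-kappaB and TGF-beta signals, and Gadd45g is induced by cytokines and marks newly committed neuronal precursors in the embryo.

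The probes are shown by their last 30 bases, because the measured values rest on these stretches of transcript. All 4 probes are 60 bases long, and their positions are those in the files, on mouse build mm7. Exons and UTRs were not assigned, since no annotation of that build was used here. The capitals mark AATAAA, the hexamer that precedes many polyadenylation sites, which was found in 1 of the 4 probes.
Gadd45a, probe A_51_P296608 (NM_007836), chromosome 6, 67017226 to 67017167: aagaaaactgctaatttaggatggccaggt
Gadd45b, probe A_51_P500984 (NM_008655), chromosome 10, 80721751 to 80721810: agagacattccAATAAActcgttaagcctt
Gadd45b, probe A_52_P1197913 (NM_008655), chromosome 10, 80721228 to 80721287: actccaaacatctaaagcaactgtcgagtt
Gadd45g, probe A_51_P315904 (NM_011817), chromosome 13, 50882456 to 50882515: acggatcccgggcaatgctttcattttcta

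The start sites are shown because 2 members, Gadd45b and Gadd45g, were both higher by 2-fold or more in the RNA labelled KO with their brightest probes, and the enzyme named in the labels acts on CpG in DNA. Each window runs from 250 bases before to 50 bases after the start of the gene, read along the gene's own strand from RefSeq on GRCm38.p6. Capitals mark CCAAT (the box bound by NF-Y), ATGCAAAT or its reverse complement ATTTGCAT (the octamer bound by POU factors), and TATAAA, a core promoter element that helps to place the start of transcription.
Gadd45a, chr6:67037358-67037657, minus strand: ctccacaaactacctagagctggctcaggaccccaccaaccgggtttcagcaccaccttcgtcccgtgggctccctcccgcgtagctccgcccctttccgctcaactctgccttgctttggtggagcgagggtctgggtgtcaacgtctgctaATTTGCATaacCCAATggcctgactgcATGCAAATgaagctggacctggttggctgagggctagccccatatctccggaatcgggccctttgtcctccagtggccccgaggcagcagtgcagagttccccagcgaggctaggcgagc
Gadd45b, chr10:80929841-80930140, plus strand: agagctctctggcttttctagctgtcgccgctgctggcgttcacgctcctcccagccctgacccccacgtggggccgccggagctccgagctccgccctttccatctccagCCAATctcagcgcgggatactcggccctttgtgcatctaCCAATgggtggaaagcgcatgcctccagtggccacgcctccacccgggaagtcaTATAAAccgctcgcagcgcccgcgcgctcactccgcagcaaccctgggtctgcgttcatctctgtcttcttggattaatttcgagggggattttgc
Gadd45g, chr13:51846425-51846724, plus strand: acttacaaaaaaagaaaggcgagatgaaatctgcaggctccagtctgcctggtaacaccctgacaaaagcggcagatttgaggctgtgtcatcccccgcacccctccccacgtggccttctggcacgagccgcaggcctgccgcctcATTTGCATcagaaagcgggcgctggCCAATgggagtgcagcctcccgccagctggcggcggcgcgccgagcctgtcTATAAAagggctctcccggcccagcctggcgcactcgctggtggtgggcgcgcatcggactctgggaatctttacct

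The 3 windows were richer in CpG than the median RefSeq window of the same length, which held 7 CpG over 32851 windows. The Gadd45b window held 24 CpG, the Gadd45g window 21 and the Gadd45a window 14, and their C+G shares were 62.0%, 62.3% and 61.0% against a median of 52.7%. Of all windows, 81.6%, 76.9% and 65.4% held as many CpG or fewer, in the same order of genes. DNA methylation was not measured here. CCAAT stood in all 3 windows, at -86 in Gadd45a, at -139 and -100 in Gadd45b and at -78 in Gadd45g, counted to the start site, and 37.4% of all windows hold it. The octamer stood at -97 and -70 in Gadd45a and at -103 in Gadd45g and was not found in the Gadd45b window, and 1.74% of all windows hold it. TATAAA stood at -46 in Gadd45b and at -27 in Gadd45g and was not found in the Gadd45a window, and 13.6% of all windows hold it.

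GGGCGG, the GC box, stood at -163 in Gadd45a and at -158 in Gadd45b, and 35.7% of all windows hold it. The E-box CAGCTG stood only in the Gadd45g window among the 3, at -55, and 16.3% of all windows hold it. None of the 3 windows held the AP-1 site TGACTCA (in 5.20% of all windows), the CREB site TGACGTCA (in 1.79%), the forkhead core TGTTTAC (in 3.65%) or the second E-box CAGATG (in 17.2%). Both strands were searched for each motif, and a match is a description of these letters only. The map of matches lays the 3 windows side by side.

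**Figure D1:**
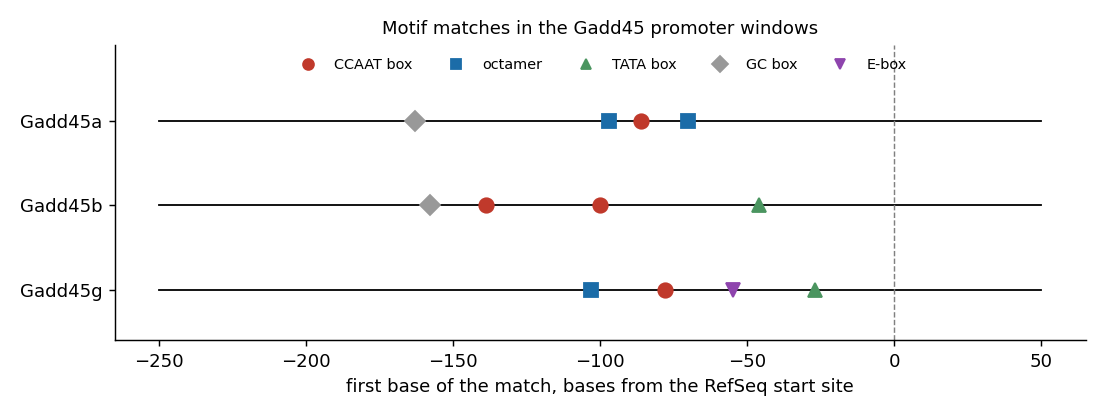
Position of each motif match (first base, in bases from the RefSeq start site at 0) in the windows of Gadd45a, Gadd45b and Gadd45g; each horizontal line is 1 window of 300 bases and each symbol 1 match on either strand. CCAAT lies in all 3 windows, the octamer in Gadd45a and Gadd45g, and TATAAA in Gadd45b and Gadd45g.

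Genes that hold these motifs had shares of calls near those of all genes with a window. Of 11676 tested genes with a window, 24.1% were higher and 27.2% lower in the RNA labelled KO. The shares were 23.1% and 28.0% for the 4976 genes with CCAAT, 26.1% and 29.6% for the 199 with the octamer, 21.3% and 33.3% for the 108 with both, and 24.3% and 24.5% for the 1262 with TATAAA. These are counts over genes, given without a test.

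The 3 arrays gave like ratios after normalization but differed in the balance of the dyes before it. On arrays 1, 2 and 3 the median spot stood at -0.75, -0.17 and -0.26 in green over red (log2). The log2 ratios, taken as KO over WT throughout, correlated at 0.910 to 0.932 between arrays over the 18033 genes, which are not independent replicates. A gene's SD over the 3 arrays had a median of 0.056. With limma and Benjamini-Hochberg adjustment over all 18033 genes, 4060 genes (22.5%) were higher and 4597 (25.5%) lower in the RNA labelled KO at an adjusted p under 0.05, and the median log2 ratio was -0.011. Median centring in place of loess gave 731 higher and 9387 lower, with the median gene at -0.26. Below, values and counts with median centring stand against that median and those counts. A sign that turns there need not place a gene below the median gene. Dnmt3a, the gene named in the labels, was not lower in the RNA labelled KO: its 3 probes stood at 0.99 ± 0.076, 0.76 ± 0.040 and 0.61 ± 0.033 (log2, SD, n = 3), higher on every array, and at 0.54 for the brightest with median centring. Where these probes lie against the deleted part is not given in the labels, so the genotype was not checked by them, and each direction below is that of the RNA labelled KO.

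Each of 11 neural stem cell markers, Nes, Sox2 and Vim among them, had both channels well above background on all 3 arrays. Of them, Sox9 stood at -1.19, Sox2 at -0.36 and Nes at -0.11 (log2), while Pax6 stood at 0.24 and Prom1 at 0.14 (-0.072 with median centring), and 7 of 11 were lower (63.6%, against 25.5% of all genes) and 2 higher (18.2%, against 22.5%). The call of Prom1 was lost without array 3, that of Nes without array 1 or 3 and that of Hes5 without any 1 array. The summed log2 level of the 11 markers was 15.80 to 15.83 for KO and 16.05 to 16.11 for WT. Of 8 oligodendrocyte lineage markers 6 were measured in both channels, among them Olig1 at -1.32 and Pdgfra at -0.59, and 5 of the 7 tested were lower (71.4%, against 25.5%). Their summed log2 level was 11.22 to 11.27 for KO and 11.83 to 11.84 for WT. The astrocyte markers Gfap and Gjb6 were not well above background, with 4 of 6 measured and a summed level of 9.18 to 9.22 against 9.62 to 9.64. Of the 4 tested, 2 were lower (50%, against 25.5%), Aldh1l1 at -1.01 and Slc1a2 at -0.25, and none was higher. Of 8 fibroblast markers 7 were measured in both channels, and 5 of the 8 tested were lower (62.5%, against 25.5%) and 1 higher (12.5%, against 22.5%). Their summed level was 17.29 to 17.32 for KO. With Col1a1 and Col3a1 saturated for WT on all 3 arrays, it was at least 17.65 to 17.78 for WT. Of these markers, Col1a2 stood at -1.48 and Postn, the higher one, at 0.95. Lists differ in their probes, so sums of different lists are not comparable. Neuronal markers were measured for 6 of 8 and summed to 11.09 to 11.30 against 11.15 to 11.25. Of the 6 tested, 2 were lower (33.3%, against 25.5%) and none was higher. The embryonic stem cell markers Pou5f1 and Nanog were too dim for the filter, and 2 of that list's 7 were measured in both channels. Of the 3 tested, 1 was higher (33.3%, against 22.5%), Dppa5a at 0.17 (-0.037 with median centring), and none was lower. Myeloid markers were tested for 4 of 7, with 1 higher and 1 lower (25% each, against 22.5% and 25.5%). The part of these differences in the Gadd45 ratios was not tested.

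All 4 Gadd45 probes gave a signal well over background in each channel of each array, none was saturated, and none carried an outlier mark that removes a spot. Gadd45g and Gadd45b were clearly higher in the RNA labelled KO, by 2.70-fold and 2.04-fold, and Gadd45a was almost level, at 1.08-fold. Counted as genes, all 3 of 3 members passed the threshold in the higher direction, against 22.5% of all genes. Counted as probes, 4 of 4 did, against 5518 of 26626 probes (20.7%). The call of Gadd45a did not hold under several settings given below, so the family holds 2 members that were higher in every setting tried and 1 whose direction depended on the setting.

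Of the 3 members Gadd45g had the largest difference. Its spot signal before correction was 3285, 5150 and 4983 for KO on arrays 1, 2 and 3 (green), and 2814, 2651 and 2568 for WT (red). The unnormalized signal was thus already higher for KO on every array, by 1.17, 1.96 and 1.96 times after subtracting the local background. After normexp correction and loess, which removes the intensity-dependent difference between dyes within an array, the log2 level was 12.19, 12.46 and 12.73 for KO and 10.86, 11.05 and 11.18 for WT. The lowest of the 3 KO levels lay above the highest WT level, so the groups did not overlap. The share of all genes without such overlap is not given, so this and the like statements below only describe the levels.

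The log2 ratio of Gadd45g was 1.33, 1.42 and 1.55 on the 3 arrays, a mean of 1.43 ± 0.11 (SD, n = 3, SE 0.046). The adjusted p of limma over all genes was 3.49e-07. In the order of all 18033 genes from the highest ratio it stood at place 23, with 0.128% of genes at or above it. The place depended on the processing: it was 8 with normexp fitted on all spots, 95 with the scanner's processed signals and 97 in the authors' deposited table. The authors' deposited table gave 1.34, 1.48 and 1.46 for the same probe. Gadd45g encodes the member most tied to cytokine signals and to neuronal commitment.

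Gadd45b, the member induced by NF-kappaB and TGF-beta, was measured by 2 probes whose starts lie 523 bases apart on chromosome 10. With the brighter probe, A_51_P500984, the spot signal was 1539, 1919 and 1853 for KO and 1644, 1361 and 1178 for WT. On array 1 the unnormalized, background-subtracted signal was thus lower for KO, at 0.936 times that of WT, and on arrays 2 and 3 it was 1.42 and 1.59 times. On array 1 the median probe was dimmer in green by -0.75 on the log2 scale, against -0.17 and -0.26 on arrays 2 and 3, so the direction on array 1 rests on the dye normalization. The normalized log2 level was 11.07, 11.03 and 11.29 for KO and 10.11, 10.11 and 10.09 for WT. The groups did not overlap, and the WT levels were nearly the same on the 3 arrays.

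The log2 ratio of this probe was 0.96, 0.92 and 1.20, a mean of 1.03 ± 0.15 (SD, n = 3, SE 0.054), with an adjusted p of 4.75e-06 by limma. It stood at place 83 of 18033 genes, with 0.46% at or above it, and 86 genes (0.477%) reached a log2 ratio of 1. Its place was 45 with normexp fitted on all spots, 235 with the scanner's processed signals and 244 in the authors' deposited table. The authors' deposited table gave 0.95, 0.89 and 1.16.

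The dimmer Gadd45b probe, A_52_P1197913, gave the same direction at a smaller size. Its spot signal was 628, 805 and 693 for KO and 775, 633 and 578 for WT. On array 1 the unnormalized, background-subtracted signal was again lower for KO, at 0.797 times that of WT. On arrays 2 and 3 it was 1.29 and 1.21 times, so the direction on array 1 rests on the dye normalization for this probe too. Its normalized log2 level was 9.74, 9.77 and 9.85 for KO and 9.08, 9.04 and 9.09 for WT, with no overlap. The log2 ratio was 0.66, 0.73 and 0.76, a mean of 0.72 ± 0.050, or 1.64-fold, with an adjusted p of 2.33e-06 by limma over all probes. On each array it was below that of the brighter probe, by 0.30, 0.19 and 0.44, a mean of 0.31 ± 0.13. The exact sign-flip permutation test of this difference gave p = 0.25, the smallest that 3 arrays allow. With the median of both probes standing for the gene, Gadd45b was at 0.87.

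Gadd45a, the p53 target, differed little. Its spot signal was 2077, 2591 and 2021 for KO and 4076, 3284 and 2832 for WT, so that before dye normalization KO was the lower on every array, at 0.505, 0.787 and 0.712 times. The normalized log2 level was 11.53, 11.47 and 11.43 for KO and 11.40, 11.36 and 11.34 for WT. All 3 KO levels lay above all 3 WT levels, but the gap between the nearest of them was smaller than the range of either group.

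The log2 ratio of Gadd45a was 0.13, 0.11 and 0.09, a mean of 0.11 ± 0.020 (SD, n = 3, SE 0.033), and its adjusted p by limma was 0.0199. It stood at place 3819, with 21.2% of genes at or above it. This call was lost without array 1, 2 or 3 (adjusted p = 0.0568, 0.0728 and 0.0683) and with the scanner's processed signals, which gave 0.065 (adjusted p = 0.202). The authors' deposited table gave 0.12, 0.067 and 0.0076, and its mean was also not past the threshold (adjusted p = 0.280). Median centring turned it to -0.36, below the median gene at -0.26, so no direction is given for Gadd45a.

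**Figure D2:**
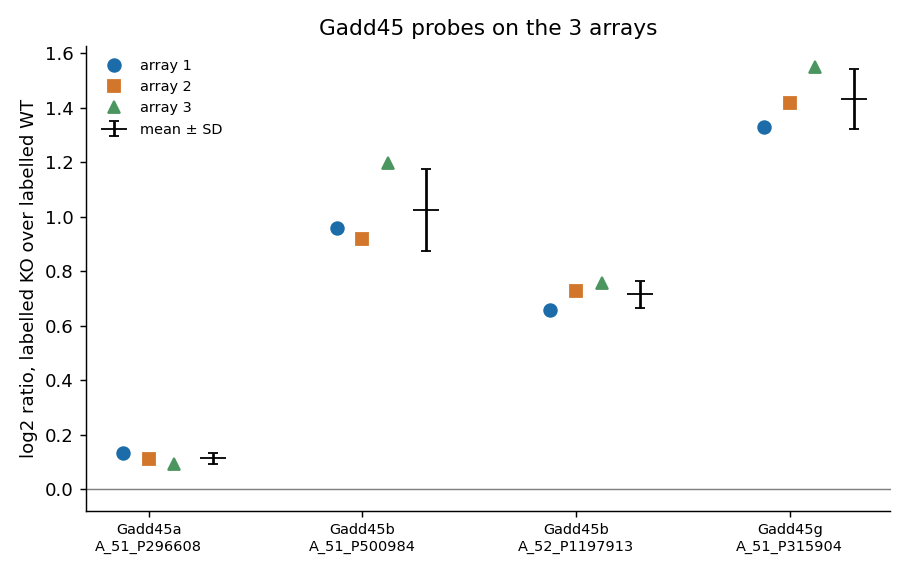
Log2 ratio, KO over WT as labelled (vertical axis), for the 4 Gadd45 probes (horizontal axis); each symbol is 1 array and the black bar the mean with its SD over 3 arrays. Gadd45g lies at 1.33 to 1.55, the Gadd45b probes at 0.92 to 1.20 and 0.66 to 0.76, and Gadd45a at 0.09 to 0.13.

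**Figure D3:**
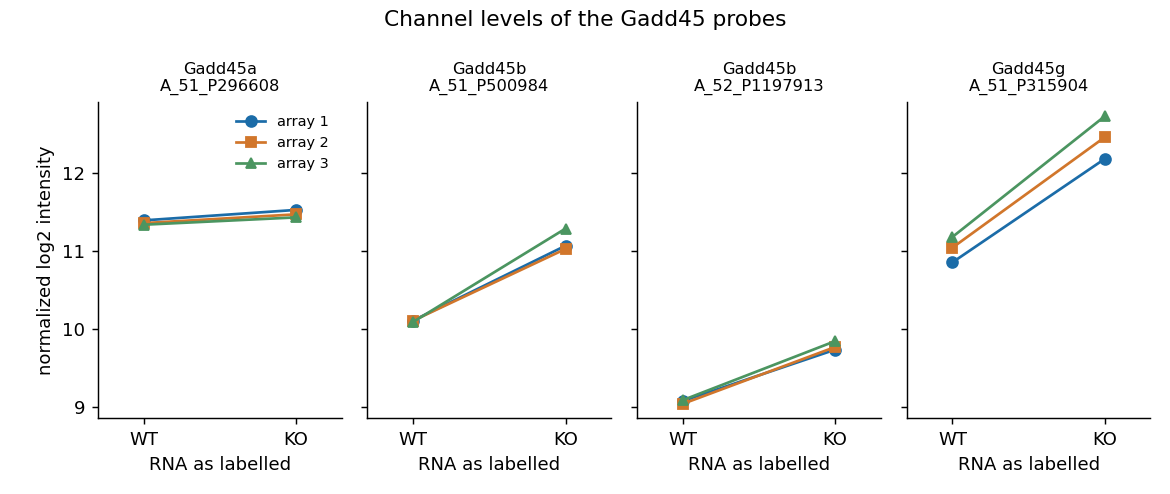
Normalized log2 intensity (vertical axis) of each Gadd45 probe in the RNA labelled WT and labelled KO; lines join the channels of 1 array, and levels of different probes are not comparable. Every line climbs from WT to KO, steeply for Gadd45g and Gadd45b and by 0.09 to 0.13 for Gadd45a.

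The members differed from one another in the same order on every array. Gadd45g exceeded Gadd45a by 1.19, 1.31 and 1.46 on the log2 scale, a mean of 1.32 ± 0.13 (SD, n = 3), or 2.49-fold. Gadd45b exceeded Gadd45a by 0.82, 0.81 and 1.10, a mean of 0.91 ± 0.17, or 1.88-fold. Gadd45g exceeded Gadd45b by 0.37, 0.50 and 0.35, a mean of 0.41 ± 0.080, or 1.33-fold, and by 0.56 with the median of the Gadd45b probes. Each difference was several times its SD between arrays. The exact sign-flip permutation test, two-sided, gave p = 0.25 for each of the 3 pairs, also after Benjamini-Hochberg adjustment, which is the smallest that 3 arrays allow.

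Gadd45b and Gadd45g stayed past the threshold with limma in all 13 alternative settings. Gadd45b ranged from 0.59 with median centring to 1.08 without array 2, with a highest adjusted p of 0.00485. Gadd45g ranged from 0.95 with median centring to 1.48 without array 1, with a highest adjusted p of 0.00219. Against the median gene of the median-centred arrays they stood at 0.84 and 1.21. The plot of settings shows the gap between Gadd45a and the other members in each of them.

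**Figure D4:**
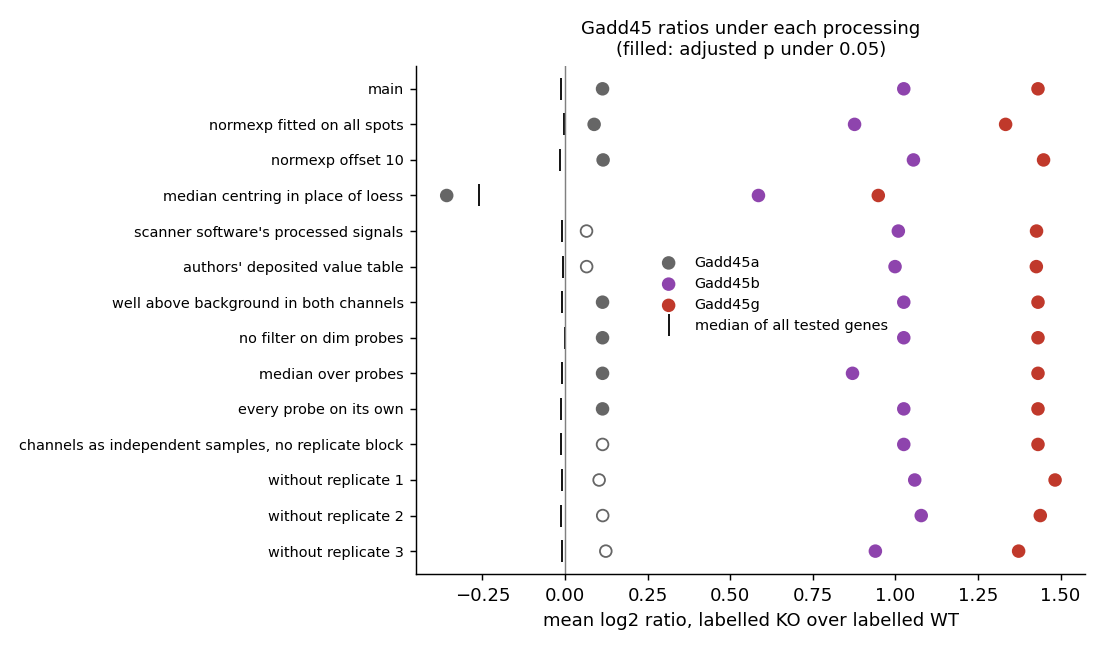
Mean log2 ratio, KO over WT as labelled (horizontal axis), for Gadd45a, Gadd45b and Gadd45g under the main and 13 alternative settings (vertical axis); filled points passed limma's adjusted p under 0.05 and black ticks mark the median of all tested genes. Gadd45b and Gadd45g are filled in each row, and Gadd45a is open in 6 and negative in 1.

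Other genes of the growth arrest and DNA damage inducible kind were split. Of 18 tested, 10 were higher (55.6%, against 22.5% of all genes) and 7 lower (38.9%, against 25.5%), with a median log2 ratio of 0.21 against -0.011 for all genes. The inhibitor of cyclin-dependent kinases Cdkn1a, a p53 target whose product p21 binds GADD45 proteins, was at 1.00, 1.04 and 0.90, a mean of 0.98 ± 0.072 (1.97-fold, adjusted p = 8.89e-07, limma). Ccng1, a p53-induced cyclin, was at 0.88 ± 0.052, and Mdm2, the ubiquitin ligase that restrains p53, at 0.75 ± 0.0081. The immediate early gene Ier5 was at 0.73 ± 0.053. These genes stood above Gadd45a in size. They stood below Gadd45b with its brighter probe, at 1.03, and above it with its dimmer probe, at 0.72. Cdkn1a also exceeded the brighter probe in the authors' deposited table (1.002 against 0.999) and with normexp fitted on all spots (0.90 against 0.88).

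Namesakes of the family were also among the lower genes of this list. Ddit4l, an inhibitor of mTOR signalling, fell by 0.66 ± 0.081 on the log2 scale (1.58-fold lower, adjusted p = 8.66e-06, limma). The kinase gene Plk2 was at -0.40 ± 0.018. Ppp1r15b and Ppp1r15a, the latter also known as Gadd34, which guide a phosphatase to the translation factor eIF2, were at -0.33 ± 0.010 and -0.23 ± 0.18. Ddit3, also called Gadd153 or Chop, a stress transcription factor, was at -0.21 ± 0.018. The mTOR inhibitor Ddit4 was at 0.49, 0.66 and 0.0069, so its mean of 0.38 ± 0.34 was carried by arrays 1 and 2. Calls of Ddit4 without array 1 (adjusted p = 0.0967), of Btg1 and Plk3 without array 2 or 3, and of Ppp1r15a without array 3 (adjusted p = 0.0698) were lost. With median centring Ddit4, Sesn2, Sesn3 and Plk3 turned negative, where the median gene was at -0.26. In that setting 3 genes of the list were higher in place of 10, against 731 in place of 4060 over all genes.

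The transcription factors known to act on Gadd45 genes showed no common direction. Of 24 tested (Trp63 was too dim), 6 were higher (25%, against 22.5% of all genes) and 8 lower (33.3%, against 25.5%), with a median of -0.056. Stat3, which carries cytokine signals, was at 0.56, 0.56 and 0.60, a mean of 0.57 ± 0.021 (1.49-fold, adjusted p = 5.89e-06, limma). Myc at 0.30 ± 0.060, Trp53 (p53) at 0.24 ± 0.047 and Atf3, a stress factor, at 0.24 ± 0.056 were higher with loess. With median centring they turned to -0.17, -0.18 and -0.038. The median gene of that setting was at -0.26, and each stayed above it. Rela, a subunit of NF-kappaB, was at 0.20 ± 0.11 with loess and at -0.25 with median centring, and its partner Nfkb1 was at 0.054 (adjusted p = 0.205).

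Wt1, a zinc finger factor reported to act with p53 on Gadd45a, had the lowest ratio of the list, at -0.84, -0.82 and -0.86, a mean of -0.84 ± 0.024 (1.79-fold lower, adjusted p = 8.49e-07, limma). Smad2, which carries TGF-beta signals, was at -0.42 ± 0.059, and Smad4, its partner, at -0.17 ± 0.039. Atf4, the factor of the integrated stress response, was at -0.38 ± 0.10, and Egr1, an immediate early factor, at -0.29 ± 0.11. Brca1, known to act on the Gadd45a promoter, was at -0.26 ± 0.062. Smad3 was at 0.18 with its brightest probe, which turned to -0.27 with median centring, and another of its probes passed the threshold in the opposite direction.

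Values for factors known to bind CCAAT or the octamer were as follows. Of the NF-Y subunits, Nfya was at -0.16 ± 0.065 (adjusted p = 0.00921, limma, and 0.0717 without array 3), Nfyb at -0.020 and Nfyc at -0.078, the latter pair not past the threshold. Pou2f1, the octamer factor, was at -0.092, 0.14 and 0.14 (adjusted p = 0.344). The forkhead factors Foxo1 at -0.062, Foxo3 at 0.065 and Foxo4 at 0.067, whose core was not found in the windows, were not past the threshold either. When normexp was fitted on all spots, 3 of 24 factors were higher in place of 6, against 2319 of 18033 genes. With median centring none was higher and 18 were lower, against 731 higher and 9387 lower of 18033 genes.

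The partners that GADD45 proteins bind were more often lower than higher. Of 16 tested, 3 were higher (18.8%, against 22.5%) and 9 lower (56.2%, against 25.5%), with a median of -0.11. The higher ones were Cdkn1a, given above, Ercc5 at 0.52 ± 0.050 and Rxra at 0.24 ± 0.028. Ercc5 encodes the endonuclease XPG of nucleotide excision repair, and Rxra a nuclear receptor, which was at -0.23 with median centring. Pcna, the sliding clamp of DNA replication, was at -0.46, -0.48 and -0.44, a mean of -0.46 ± 0.019 (1.38-fold lower, adjusted p = 1.75e-05, limma).

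Both parts of the mitotic kinase that GADD45 proteins bind were lower: Ccnb1 (cyclin B1) at -0.31 ± 0.034 and Cdk1 at -0.22 ± 0.072. Aurka, another mitotic kinase, was at -0.27 ± 0.024, and Taf12, a subunit of the general transcription machinery, at -0.25 ± 0.079. Map3k4, the kinase the family activates, was at -0.099, -0.11 and -0.13, a mean of -0.11 ± 0.014 (adjusted p = 0.020, limma), and its call was lost without array 2 or 3. Gadd45gip1, named for its binding to GADD45G, was at 0.018 ± 0.011 (adjusted p = 0.667). The calls of Npm1 without array 1 or 2 and of Tdg without array 1 or 3 were lost too. With median centring 1 partner was higher in place of 3.

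Genes of G2 and mitotic entry, activators and inhibitors of the step that GADD45 proteins are known to restrain, were lower or not past the threshold. Of 14 tested, none was higher and 11 were lower (78.6%, against 25.5% of all genes), with a median of -0.24. Ccna2 (cyclin A) was at -0.54, -0.51 and -0.49, a mean of -0.51 ± 0.028 (1.42-fold lower, adjusted p = 1.15e-05, limma). The kinase Plk1 was at -0.42 ± 0.037, Pkmyt1, which holds CDK1 inactive, at -0.35 ± 0.048, and Bora, a cofactor of Aurora A, at -0.33 ± 0.096. The Cdk1-activating phosphatases Cdc25b and Cdc25c were at 0.097 ± 0.060 and -0.093 ± 0.089, and Wee1, which inhibits CDK1, at -0.088 ± 0.089, none of them past the threshold. The call of Foxm1, at -0.12, was lost without array 1 or 3. No gene of this list was higher in any of the 13 alternatives, and 9 to 13 were lower. The 13 lower genes were with median centring, where 9387 of 18033 genes were lower in place of 4597.

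The kinases from MAP3K4 to p38 and JNK moved by small amounts in both directions. Of 12 tested, 3 were higher (25%, against 22.5%) and 3 lower (25%, against 25.5%), with a median of 0.031. Mapk10 (JNK3) was at 0.22 ± 0.10. Map2k3 and Mapk8 (JNK1) were at 0.23 ± 0.064 and 0.20 ± 0.15 with loess. With median centring these latter genes were at -0.12 and -0.11, above its median gene at -0.26. Mapk14 (p38 alpha) was at -0.20 ± 0.061 and Mapk11 (p38 beta) at -0.15 ± 0.023. Map2k6 at -0.019 and Map2k4 at -0.017 did not pass the threshold. Mapk8 lost its call without array 3 (adjusted p = 0.0909). When normexp was fitted on all spots, 1 kinase was higher, against 2319 of 18033 genes. With median centring none was higher and 7 were lower, against 731 higher and 9387 lower of 18033 genes.

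Of 10 phosphatases and scaffolds of the p38 and JNK pathways, 3 were higher (30%, against 22.5%) and 3 lower (30%, against 25.5%), with a median of -0.029. The higher ones were scaffolds that gather JNK and its kinases. Spag9 and Mapk8ip3 were at 0.37 ± 0.066 and 0.28 ± 0.052 with loess. With median centring they were at -0.10 and -0.24, above its median gene at -0.26. Mapk8ip2 was at 0.13 ± 0.021. The lower ones were phosphatases that switch these kinases off: Dusp1 at -0.47, -0.49 and -0.38, a mean of -0.44 ± 0.058 (1.36-fold lower, adjusted p = 3.95e-05, limma), Dusp10 at -0.15 ± 0.031 and Dusp8 at -0.12 ± 0.078. The calls of Mapk8ip2 without array 3 and of Dusp8 without array 1 or 2 were lost. When normexp was fitted on all spots, 1 gene was lower, against 3144 of 18033 genes. With median centring none was higher and 5 were lower, against 731 higher and 9387 lower of 18033 genes.

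The factors of active DNA demethylation that have been linked to GADD45 proteins were mixed. Of 15 tested (Neil2 was too dim), 4 were higher (26.7%, against 22.5%) and 5 lower (33.3%, against 25.5%), with a median of -0.053. The deaminase gene Apobec1 was at 0.52, 0.58 and 0.55, a mean of 0.55 ± 0.028 (1.47-fold, adjusted p = 7.85e-06, limma). It was at 0.16 with normexp fitted on all spots and at 0.82 in the authors' deposited table. Ercc5 has been given above, and Apobec3, another deaminase, was at 0.22 ± 0.061. Apobec3 was at 0.36 in the authors' deposited table. It was not past the threshold with normexp fitted on all spots, at 0.049, or with median centring, at 0.054. Ercc4, the endonuclease XPF, was at 0.13 ± 0.052 with loess and at -0.23 with median centring, and its call was lost without array 2 or 3.

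Of the enzymes that oxidize or excise methylated bases, Tet2 was at -0.14 ± 0.033, Tet3 at -0.13 ± 0.052, Tdg at -0.15 ± 0.077 and Tet1 at -0.088 ± 0.16, Tet1 not past the threshold. The calls of Tet2 and Tet3 were lost without array 3, and another Tet3 probe passed the threshold in the opposite direction. Apobec2 was called lower but was not well above background for KO on any array. The count of lower genes was 2 without array 3, 3 under normexp on all spots or the median over probes and 8 with median centring. Over all genes the lower counts there were 3483 of 18141, then 3144, 4284 and 9387 of 18033. The count of higher genes was 2 with normexp on all spots and 1 with median centring, against 2319 and 731 of 18033.

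Genes of early neuronal commitment, among which Gadd45g is usually counted in the embryo, were mostly lower in the main setting. Of 14 tested, 3 were higher (21.4%, against 22.5%) and 9 lower (64.3%, against 25.5%), with a median of -0.11; Neurod1, Neurod4, Mfng and Eomes were too dim for the filter. Btg2, an antiproliferative p53 target, was at 0.63 ± 0.053. Sox4 at 0.28 ± 0.19 and Hes6 at 0.20 ± 0.064 turned to -0.12 and -0.21 with median centring, above its median gene at -0.26. Dcx, a microtubule protein of migrating neurons, was at -0.59, -0.59 and -0.41, a mean of -0.53 ± 0.10 (1.44-fold lower, adjusted p = 4.94e-05, limma).

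Sox11 was at -0.39 ± 0.044, the Notch ligand Dll3 at -0.27 ± 0.060 and Tubb3, the neuronal tubulin, at -0.23 ± 0.035. Neurog1 was at -0.10 ± 0.064 and Neurog2 at -0.042 ± 0.083, the last not past the threshold. When normexp was fitted on all spots, Dcx was at -0.092 (adjusted p = 0.0674) and Dll3 at -0.039 (adjusted p = 0.0516), and in the authors' deposited table they were at -1.27 and -0.69. The call of Dll1 was lost without array 1, that of Neurog1 without array 2 or 3 and that of Hes5 without any 1 array. Normexp fitted on all spots left 1 gene of this list higher and 2 of 14 lower, against 3144 lower of 18033 genes. With median centring none was higher and 6 of 14 were lower, against 9387 lower of 18033 genes. In both settings the share of lower genes was thus not above that of all genes.

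**Figure D5:**
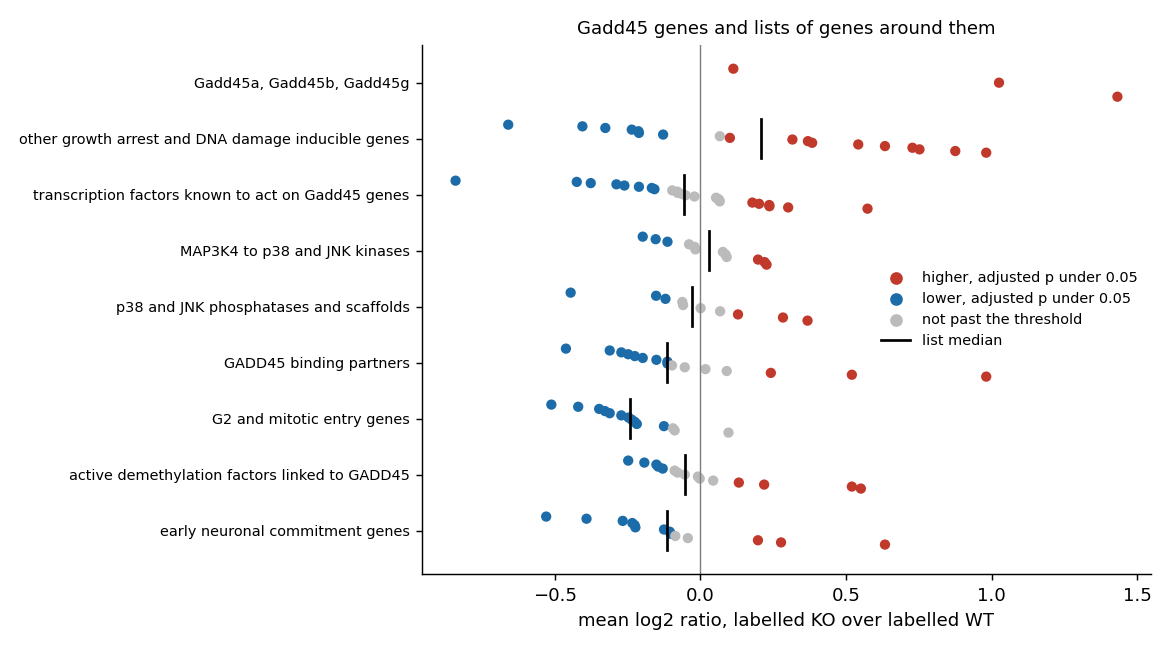
Mean log2 ratio, KO over WT as labelled (horizontal axis), for the 3 Gadd45 genes and each tested gene of the 8 lists (rows); red points were higher and blue points lower at limma's adjusted p under 0.05, grey points did not pass, and black ticks mark each list's median. Gadd45g lies to the right of every list gene. Gadd45b, plotted with its brightest probe, lies next, with Cdkn1a at 0.98 the closest. The mitotic entry list lies almost wholly to the left.

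The genes whose 3 array values were most like those of a member were found by the root mean square difference of the log2 ratios over the 3 arrays, among all 18033 genes. For Gadd45g they were Fabp4 (difference 0.068), Krt7 (0.070), 3110039M20Rik (0.078), Svop (0.083) and Fgf7 (0.088), with mean ratios of 1.41 to 1.49. The ratios of all 5 moved with the correction: they were 0.30 (Fgf7) to 0.89 (3110039M20Rik) when normexp was fitted on all spots, and 1.69 (3110039M20Rik) to 2.93 (Fgf7) in the authors' deposited table. For Gadd45b they were Anxa3 (0.052), Ccl7 (0.087), Flt1 (0.10), Lmo7 (0.11) and Akr1b10 (0.11), with mean ratios of 0.96 to 1.12. For Gadd45a they were Klc4, Zcchc24, Rab38, Ptpru and Poglut1, at differences of 0.0065 to 0.010. No Gadd45 gene was among the nearest of another, which follows from the differences between their mean ratios given above.

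The nearest tested genes on each side of the members in RefSeq gene order on GRCm38.p6 were taken next. They lay 12 to 96 kb from Gadd45b, 53 to 1119 kb from Gadd45g and 14 to 4091 kb from Gadd45a. None around Gadd45b or Gadd45g reached the ratio of its member. Only 0.46% and 0.128% of all genes stand at or above these ratios, so this only describes the neighbours. The 3 tested genes on each side of Gadd45g stood between -0.42 and 0.16: Cks2 at -0.42, Nfil3 at -0.22 and Sema4d at -0.11 were lower (Sema4d not without array 2 or 3), Auh at 0.16 was higher (-0.24 with median centring), and Secisbp2 and Syk were not past the threshold. Around Gadd45b, Lmnb2 at -0.31 was lower, Sppl2b at 0.22 was higher (-0.25 with median centring), and Timm13, Gng7, Diras1 and Slc39a3 stood between -0.0038 and 0.079 without passing. Around Gadd45a, Mad2l1 at -0.30 and Eif2ak3 at -0.35 were lower, Thnsl2 at 0.25 was higher (-0.14 with median centring), and Gng12 at 0.072, Serbp1 at -0.0048 and 4930544G11Rik at -0.071 did not pass. Gng12, the nearest of them, thus stood near the 0.11 of Gadd45a.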

How the data were processed

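The deposited scanner files came, per the file headers, from Agilent Feature Extraction 9.5.3.1 and hold spot and local background intensity values, processed intensity values (background corrected and dye normalized by that software) and a log10 ratio of red over green, used only to check direction. The authors' deposited value table was read as log2 ratios, KO over WT, since its columns correlated at 0.993 to 0.998 with the scanner's ratio turned that way. How it was centred is not stated, and its column medians were 0.0276 on each array.

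Here, spots with an outlier mark (170, 173 and 242 per array) were left out, and signals were corrected with limma's normexp (limma 3.58.1, R 4.3.3), fitted on the unmarked spots, with an offset of 50, which draws ratios of dim spots toward 0. Loess within arrays followed, with control spots at weight 0, and the dyes in the labels set the direction, KO over WT. The headers give 1 slide and 1 scan day for the 3 arrays. Per array, 63.6% to 65.0% of probes exceeded background clearly for KO and 65.6% to 68.9% for WT, and the number of arrays limits the precision.

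A probe was tested if well above background on all 3 arrays in either channel (26626 probes), and the brightest probe stood for a gene. Of 41174 probes, 22951 were named through their accession and 9768 through a symbol or synonym in the RefSeq table of GRCm38.p6, and 8455 kept the file's name. Each gene's mean ratio was set against 0 in limma's lmFit and eBayes (two-sided, with 2 degrees of freedom left per gene), with Benjamini-Hochberg adjustment over all genes, a method that was tested on simulated data.

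The family, the gene lists and the tests were chosen with earlier results of these data known. Named genes were the members and Dnmt3a, up to 4 genes per direction and list by size of ratio or with a role described, the 5 genes nearest to each member and 3 tested neighbours per side. Genes listed only for a lost call or a turned sign were chosen after their values were seen. Alternatives changed the background correction, its offset, the normalization, the source of the values, the filter, the choice of probe and the pairing, and left out each array. Protein sequences were not used here. One gene counted in a list is not reported here by name.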

Additional observations from a re-analysis of the deposited data

How the results depend on the processing

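Gadd45b, Gadd45g and the differences between members kept their direction in every alternative run, and Gadd45b and Gadd45g their side of the threshold. Gadd45a was at -0.36 with median centring (all-gene median -0.26), and below the threshold at 0.065 with the scanner's processed signals, 0.065 in the authors' deposited table, 0.11 with channels as independent samples (no replicate block, limma adjusted p = 0.0847) and 0.10 to 0.12 with each array left out. Gadd45b was 0.94 to 1.08 and Gadd45g 1.37 to 1.48 with each array left out. Without the replicate block, that is, without the pairing within arrays, 3056 genes were lower in place of 4597, and no other Gadd45 call changed. Gadd45g exceeded Gadd45b by 0.56 in place of 0.41 with the median over probes. Over the 8 lists, 29 genes were higher and 47 lower, against 17 higher with normexp fitted on all spots and 4 higher with median centring. Over all genes, 2319 were higher with normexp on all spots, and 731 were higher and 9387 lower with median centring. Of the 76 called list genes, 17 changed sign with median centring, 6 relative to its median gene, and none with the other 4 scalings. The causes were not tested.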
